A study of Mus musculus with 7 samples.

Results

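Hearts of *Wt1* mutant mouse embryos were compared with control hearts of the same litters, over the 6621 cells annotated for this line among 76801 cells of the whole series. Cells were chosen by the deposited line and genotype labels, and a heart was 1 combination of litter, mouse and genotype. There were 11 hearts, 5 control and 6 mutant, of 4 stages from E10.5 to E14.5. The mutants came from crosses of Wt1-GFPCre mice, in which a GFP and Cre cassette is knocked into the *Wt1* locus and disrupts the gene, so they carry the mutation in all cells and not in the epicardium alone. The label of the controls is C, and whether a control was wild type or heterozygous was not given in the sources used here. Whole hearts were dissociated, tagged by MULTI-seq, a method in which lipids carry a short DNA barcode into the cell membranes of a sample so that samples can be pooled, and sequenced with droplet scRNA-seq. Experiment 1 held a litter at E10.5 and the litter at E13.5, and experiment 2 held another litter at E10.5 and those at E11.5 and E14.5, each pooled with hearts of a *Tbx18* line.

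The epicardium is the sheet of mesothelial cells that covers the myocardium. Some of its cells lose their epithelial form, enter the heart wall and give rise to fibroblasts and the mural cells of coronary vessels, and the sheet also secretes growth factors for myocardium and endothelium. *Wt1* encodes a zinc finger transcription factor made by epicardial cells (chr2:105126529-105173616, plus strand, GRCm38), and embryos that lack it die at mid-gestation with a thin myocardium. The endocardium lines the chambers, while vascular endothelial cells (ECs) build the coronary vessels, which form during the stages studied.

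The genotype of every cell rests on its MULTI-seq barcode, so the barcodes of the hearts compared below and of the 3 mutant hearts that gave few cells are shown, in lower case and with no base marked.
E10.5 control, experiment 1: tgaccgat
E10.5 mutant, experiment 1: ccaaccgg
E11.5 control: ctacgaca
E11.5 mutant: gaaggaag
E14.5 control: cgaagccc
E14.5 mutant 2: gtacgcat
E10.5 mutant, experiment 2: ctagctga
E13.5 mutant: ttagccag
E14.5 mutant 1: agaagagg
Within a pool of 10 hearts in experiment 1 or 9 in experiment 2, the barcode of each heart differed from every other at 4 or more of its 8 bases. Of the 6621 droplet barcodes 6617 were distinct, and the 4 others were seen in more than 1 well.

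The cells had a median of 14760 UMIs, with a range of 2007 to 99862, and between 1000 and 7994 detected genes. Experiment 2 was the deeper experiment: the control hearts at E10.5 had a median of 16146 UMIs per cell in experiment 1 and 35530 in experiment 2, so levels were compared within litters only. The cell types are those of the deposited annotation, which used *Wt1*, *Tbx18* and *Aldh1a2* for epicardial cells, *Postn* for fibroblast-like cells, *Ttn* for cardiomyocytes (CMs), *Pecam1* for ECs, *C1qa* for immune cells and *Hba-a1* for blood. No gene values were used here, so neither the types nor the loss of *Wt1* could be checked against them. The epicardial type was defined in part by the gene that is mutated, which limits any count of such cells in a mutant. Among the 2522 cells of experiment 1, for which reads on GFP were tallied, 1 had a GFP UMI, a ventricular CM of the E13.5 control. None of 168 mutant cells did, which allows a share of up to 1.79%, and only 4 of them were epicardial, so this tally could not check the labels.

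Mutant hearts gave fewer cells than the control of their litter in every case. The control gave 382 cells and the mutant 155 at E10.5 in experiment 1, 125 and 7 at E10.5 in experiment 2, and 276 and 179 at E11.5. At E13.5 the control gave 1972 cells and the mutant 13, and at E14.5 the control gave 1977 and the 2 mutants 4 and 1531. The mutant hearts ranged from 4 to 1531 cells and the controls from 125 to 1977, so the groups overlapped across stages although no mutant exceeded its own control. Over 5 litters the mean difference on the log2 scale was -3.60 ± 2.69 (SD, n = 5), a control 12.1-fold above its mutant. It ranged from -4.46 without the E14.5 mutant of 1531 cells to -2.69 without the litter at E13.5, and was -2.74 without the E14.5 mutant of 4 cells. Among hearts with 50 or more cells alone it was -0.76, over 3 litters. The exact permutation test of genotype within litters gave p = 0.104, where the smallest possible p over 48 arrangements was 0.0208, so the difference did not pass 0.05. This test was chosen after the counts were seen. The paper states that volumes of the samples were combined with equal cell numbers as the target, so cells kept do not measure cells per heart. Fewer cells in a heart, fewer that were pooled, fewer that carried a barcode and fewer that passed the filter cannot be told apart.

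**Figure D1:**
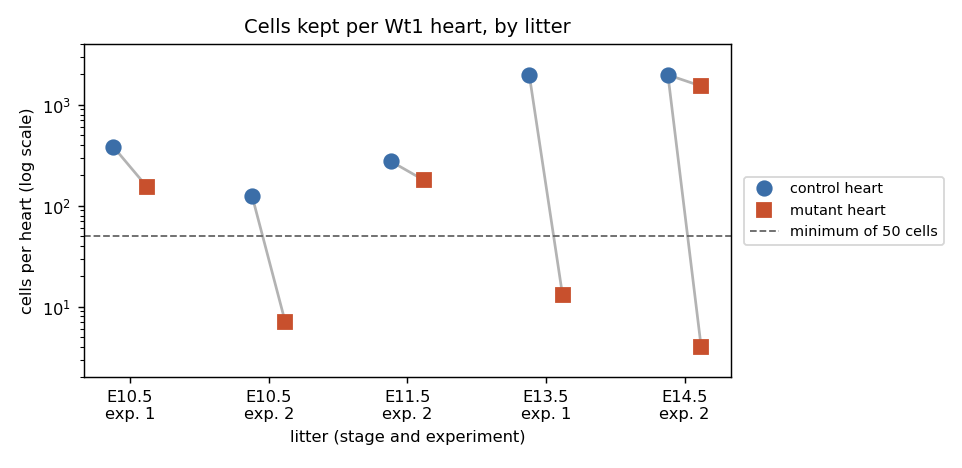
Cells kept per *Wt1* heart (y axis, log scale) for each litter (x axis, stage and experiment), with lines that join each mutant to the control of its litter and a dashed line at the minimum of 50 cells. Of the 6 mutant hearts 3, with 4, 7 and 13 cells, lie below the line, and the 5 control hearts lie above it.

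Hearts with 50 or more cells were kept, which left 8, and 6 of these formed 3 litters with both genotypes, at E10.5 (experiment 1), E11.5 and E14.5, each with 1 control and 1 mutant and with 4500 cells in all. The controls at E10.5 of experiment 2 and at E13.5 had no mutant to compare and serve as a measure of how controls vary. That spread includes litter and experiment, and for the late controls also stage, which differences within a litter do not hold. Exchanging genotype within 3 litters allows 8 arrangements and a two-sided exact p of 0.25 at best, so no comparison below could reach 0.05. Intervals (95%, Clopper-Pearson, exact) hold the counting error of 1 heart and nothing of the spread between hearts.

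Epicardial cells made up less of the non-myocytes in the mutant than in the control in each of the 3 litters. At E10.5 they were 26 of 167 non-myocytes in the control (15.6%, interval 10.4 to 22.0%) and 4 of 47 in the mutant (8.51%, interval 2.37 to 20.4%). At E11.5 they were 20 of 138 in the control (14.49%, interval 9.08 to 21.5%), and the mutant had 0 of 119, which allows a share of up to 2.52%. At E14.5 they were 74 of 1250 in the control (5.92%, interval 4.68 to 7.38%) and 48 of 1105 in the mutant (4.34%, interval 3.22 to 5.72%). The counting intervals of the genotypes were apart at E11.5 and overlapped at E10.5 and E14.5. Across stages the controls formed 2 levels, 14.49 to 15.6% in the 3 hearts at E10.5 and E11.5 and 5.92 to 6.13% in the 2 at E13.5 and E14.5. The other E10.5 control, with 9 of 59 cells (15.3%, interval 7.22 to 27.0%), differed from the first by -0.315 points. The mutant differed from that first control by -7.06 points. With so few cells the interval of the other control also holds the share of the mutant, so the close match of the controls is no yardstick.

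The mean difference in epicardial share was -7.71 ± 6.48 points (SD, n = 3 litters, lower in 3 of 3), with an exact permutation p of 0.25, the smallest possible, and 1 after Benjamini-Hochberg adjustment over 5 types. The size rested most on E11.5, without which the mean was -4.32 points. Both droplet wells of experiment 1 had the same order at E10.5. The control had 18 of 82 (22.0%) in the first well and 8 of 85 (9.41%) in the second, and the mutant had 3 of 24 and 1 of 23 (4.35%). The wells of the control heart were thus further apart than the genotypes. As the counting intervals of the genotypes also overlapped at E10.5, the difference there was not resolved from counting error. With blood cells left out of the denominator the share went from 20.2 to 10.0% at E10.5, from 24.1% to 0 of 54 cells at E11.5 and from 5.96 to 4.39% at E14.5. The mutant hearts below the minimum held 2 epicardial cells among 4 non-myocytes (E14.5 mutant 1), 0 among 8 (E13.5) and 0 among 1 (E10.5), too few for a share.

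Fibroblast-like cells did not differ in 1 direction. At E10.5 they were 19 of 167 non-myocytes in the control (11.4%, interval 6.99 to 17.2%) and 14 of 47 in the mutant (29.8%, interval 17.3 to 44.9%). At E11.5 the control had 34 of 138 (24.6%, interval 17.7 to 32.7%) and the mutant 19 of 119 (16.0%, interval 9.90 to 23.8%). At E14.5 the control had 582 of 1250 (46.6%) and the mutant 328 of 1105 (29.7%), and there the intervals were well apart. The mutant was thus higher at E10.5 and lower in the older litters, with a mean difference of -2.38 ± 18.5 points (SD, n = 3, exact permutation p = 1).

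The E10.5 value depended on which control was read. The other E10.5 control, of another litter and experiment, had 28.8% fibroblast-like cells, 17.4 points above the first. The controls of this stage thus differed by nearly as much as the mutant did from its own littermate (18.4 points). At the late stages the controls themselves ranged from 62.9% at E13.5 to 46.6% at E14.5, and the E14.5 mutant lay below both. The stage and the experiment changed together between these late controls and cannot be told apart.

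ECs, which line the chambers and vessels, were 49.1% of non-myocytes in the control and 46.8% in the mutant at E10.5, 21.0 and 29.4% at E11.5, and 35.1 and 50.1% at E14.5. The mean difference was 7.04 ± 8.73 points (SD, n = 3, exact permutation p = 0.5), and the intervals were apart at E14.5. The controls varied as well. The other E10.5 control, of another litter and experiment, had 28.8% ECs, -20.3 points from the first. That gap was wider than between the genotypes of any litter, but hearts, litters and experiments cannot be told apart in it. The late controls had 23.7% at E13.5 and 35.1% at E14.5, and the E14.5 mutant lay above both. Intervals that are apart hold nothing of the spread between hearts. With blood cells left out, ECs at E11.5 were 34.9% in the control and 64.8% in the mutant. Those intervals were also apart, and the mean difference over litters was 12.2 points (exact permutation p = 0.5). Immune cells, mostly macrophages in the fetal heart, were rare before the late stages, and at E14.5 they were 147 of 1250 in the control (11.8%) and 164 of 1105 in the mutant (14.8%), with intervals that overlapped. Blood cells made up 22.8 and 14.9% at E10.5, 39.9 and 54.6% at E11.5, and 0.640 and 0.995% at E14.5 for control and mutant. The shares of a heart sum to the whole, so a lower fibroblast-like share and a higher EC share at E14.5 are not separate measurements.

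**Figure D2:**
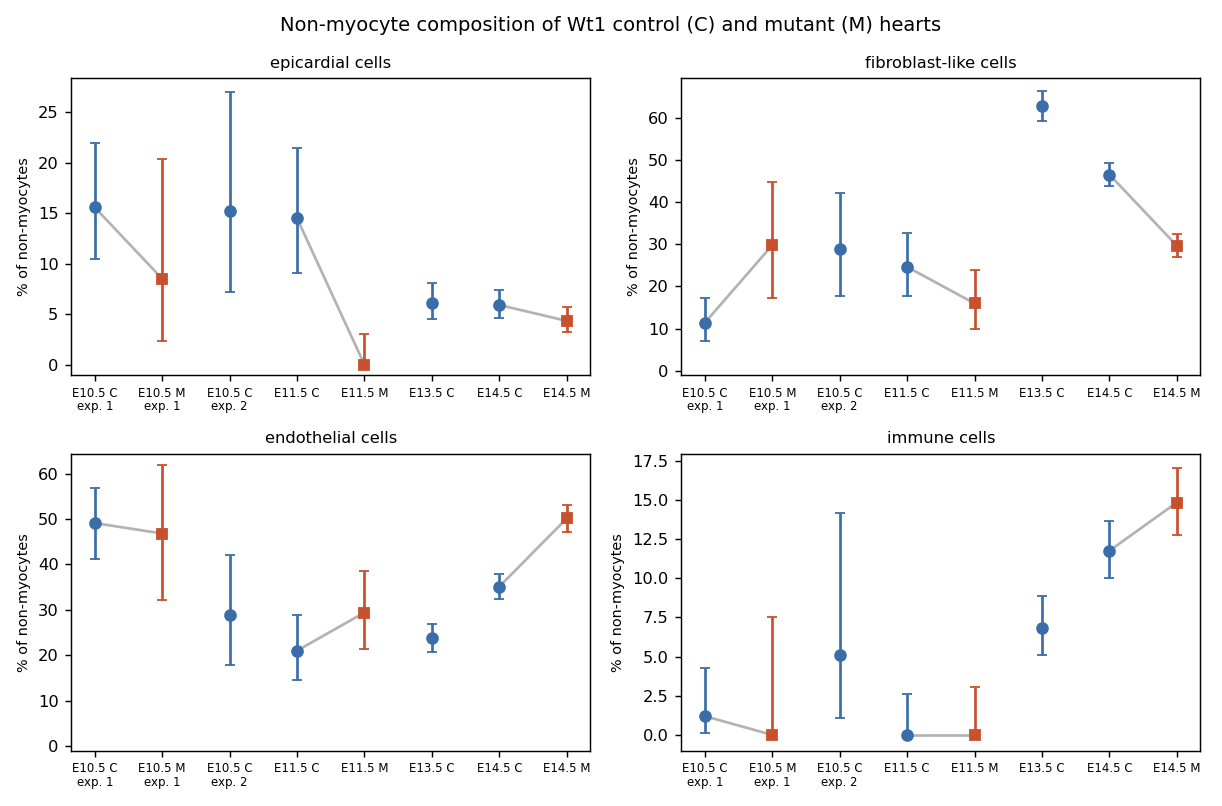
Share of non-myocytes in percent (y axes) for epicardial, fibroblast-like, endothelial and immune cells in each heart with 50 or more cells (x axis, C control and M mutant), with exact 95% counting intervals and grey lines between hearts of 1 litter. The mutant point is the lower along all 3 epicardial lines, while for fibroblast-like cells it is the higher at E10.5 and the lower at E11.5 and E14.5.

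At E14.5 the fibroblast-like cells were divided over 4 deposited clusters, numbered 2, 3, 8 and 18, and the genotypes differed between them. Cluster 2 held 132 cells in the control and 148 in the mutant, 10.6% (interval 8.91 to 12.4%) and 13.4% (interval 11.4 to 15.54%) of non-myocytes. The other clusters together held 450 and 180 cells, 36.0% (interval 33.3 to 38.7%) and 16.3% (interval 14.2 to 18.6%). The lower fibroblast-like share of this mutant heart therefore lay in the other clusters. Within the fibroblast-like cells cluster 2 made up 22.7% in the control and 45.1% in the mutant, cluster 3 44.2 and 32.6%, cluster 8 25.3 and 19.5% and cluster 18 7.90 and 2.74%.

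The E13.5 control again showed how far controls differ. Its cluster 2 share was 38.8%, between the E14.5 genotypes, and its cluster 3, 8 and 18 shares were 18.01, 22.7 and 20.6%. The genes that mark each cluster were not used here, so the clusters have no names. Over the *Wt1* cells of all hearts, cluster 2 was shallower than cluster 3, with medians of 9144 and 17569.5 UMIs, and whether depth had a part in the cluster shares was not tested. This comparison is of 1 heart with 1 heart, with no test.

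**Figure D3:**
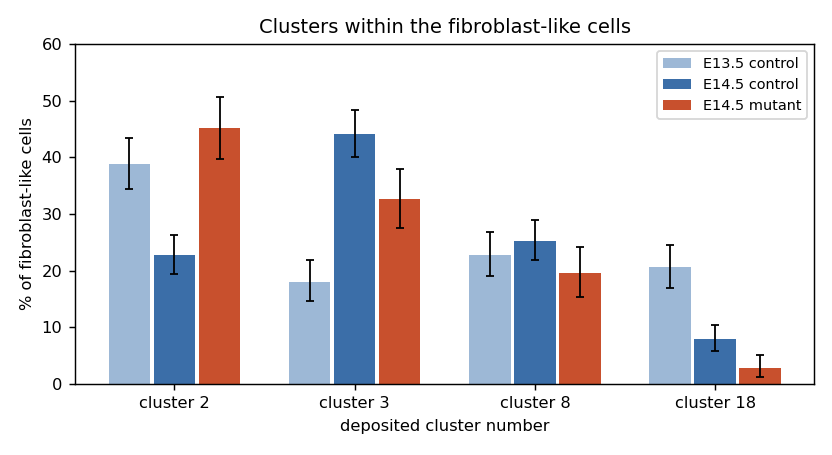
Share of fibroblast-like cells in percent (y axis, from 0) in each of the 4 deposited clusters (x axis) for the E13.5 control, the E14.5 control and the E14.5 mutant heart, with exact 95% counting intervals. The E14.5 mutant has the tallest bar in cluster 2 (45.1%) and lies below the E14.5 control in clusters 3, 8 and 18.

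Vascular ECs arise late in these stages, and the ratio of endocardial to vascular ECs followed that order in the controls. The control hearts had 82 endocardial and 0 vascular ECs at E10.5 in experiment 1, 16 and 1 at E10.5 in experiment 2, and 25 and 4 at E11.5. They had 145 and 33 at E13.5 and 336 and 103 at E14.5. The mutants had 21 endocardial and 1 vascular EC at E10.5, 34 and 1 at E11.5, and 480 and 74 at E14.5. Before E13.5 no heart had more than 4 vascular ECs, so the ratio there was set by a few cells.

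At E14.5 the ratio was 3.26 in the control (log2 1.70, interval 1.38 to 2.04) and 6.49 in the mutant (log2 2.69, interval 2.34 to 3.07). Both ratios are counts of 1 heart each, the mutant lay 1.98-fold above the control, and the intervals did not overlap. Vascular ECs were 23.5% of ECs in the control (interval 19.6 to 27.7%) and 13.4% in the mutant (interval 10.6 to 16.5%), and in the E13.5 control they were 18.5% (interval 13.1 to 25.04%). The largest of the 3 endocardial clusters, cluster 0, was 54.9% of ECs in the control and 67.1% in the mutant, while the shares of clusters 14 and 19 each differed between the genotypes by less than 1.5 points. Among non-myocytes vascular ECs numbered 103 of 1250 in the control and 74 of 1105 in the mutant, and endocardial ECs 336 and 480. In counts the higher ratio thus went with more endocardial ECs as well as fewer vascular ECs. The mutant also had fewer non-myocytes, and no interval was computed for vascular ECs among them. Whether their share of non-myocytes was lower beyond counting error was not tested. With 0.5 added to each count, the log2 ratio of the mutant was 2.02 above the control at E11.5 and 0.99 above it at E14.5, while at E10.5 the control had no vascular EC and no fold is given. The mean difference was -0.17 ± 2.95 (SD, n = 3, exact permutation p = 1), and 1.50 without the litter at E10.5.

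**Figure D4:**
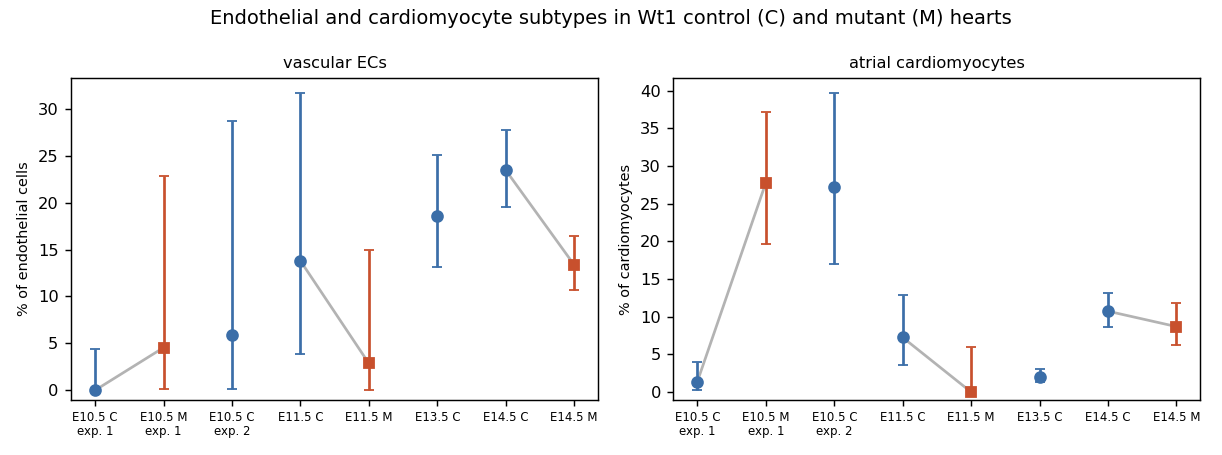
Vascular ECs in percent of ECs and atrial CMs in percent of CMs (y axes) in each heart with 50 or more cells (x axis, C control and M mutant), with exact 95% counting intervals and grey lines between hearts of 1 litter. Vascular ECs are 23.5% in the control and 13.4% in the mutant at E14.5, and atrial CMs are far lower in the E10.5 control of experiment 1 (1.40%) than in the other 2 hearts of that stage.

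CMs, the contractile cells, were 56.3% of all cells in the control and 69.7% in the mutant at E10.5, 138 of 276 cells and 60 of 179 (33.5%) at E11.5, and 36.8 and 27.8% at E14.5. The mutant was higher at E10.5 and lower in the other litters, with a mean difference of -4.01 ± 15.54 points (SD, n = 3, exact permutation p = 0.75). Atrial CMs were 3 of 215 CMs in the E10.5 control (1.40%) and 30 of 108 in its mutant (27.8%). The other E10.5 control had 18 of 66 (27.3%), which lay with the mutant and apart from the first control. At E11.5 atrial CMs were 10 of 138 in the control (7.25%) and 0 of 60 in the mutant, which allows up to 5%, and at E14.5 they were 10.7 and 8.69%. The E10.5 control of experiment 1 thus stood apart from both other hearts of its stage in its atrial and fibroblast-like shares but not in its epicardial share, so each E10.5 difference in the first 2 rests on it.

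Among the CMs of E14.5 the deposited clusters again differed between the genotypes. Ventricular cluster 13 held 9 of 727 CMs in the control (1.24%, interval 0.568 to 2.34%) and 51 of 426 in the mutant (11.97%, interval 9.05 to 15.4%). At E11.5 the order was the opposite, with 22 of 138 in the control (15.9%) and 1 of 60 in the mutant (1.67%), and the E13.5 control had 123 of 1222 (10.1%). Ventricular cluster 10, whose cells had a median of 5180 UMIs and 0.300% mitochondrial UMIs against at least 12155.5 UMIs and 4.69% in every other ventricular cluster, held 126 of 727 CMs in the control (17.3%, interval 14.6 to 20.3%) and 38 of 426 in the mutant (8.92%, interval 6.39 to 12.04%). In the other *Wt1* hearts with 50 or more cells it held between 0.725 and 4.55% of CMs, so the E14.5 control and, less so, its mutant stood above the rest.

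The median UMIs of CMs were lower in the mutant in each litter by a small margin, and the 95% intervals of the medians overlapped in each. At E14.5 the overlap was slight, with 22150 to 24634 in the control and 19216 to 22437 in the mutant. The medians were 16270 in the control and 15512 in the mutant at E10.5, 44059 and 40290 at E11.5, and 23643 and 21161 at E14.5. These are 0.953, 0.914 and 0.895 times the control, a mean of -0.12 ± 0.05 on the log2 scale (SD, n = 3, lower in 3 of 3), with an exact permutation p of 0.25, the smallest possible, and 0.75 adjusted over 3 types. Detected genes of CMs followed, at 0.982, 0.985 and 0.935 times the control, also with an exact permutation p of 0.25. The margin depended on the choice of cells and summary, with a mean difference in UMIs of -0.16 without cluster 10, -0.067 without the 10% of cells with the highest doublet scores (exact permutation p = 0.75) and -0.0074 with means over cells in place of medians (exact permutation p = 1). For genes the last 2 choices turned the direction.

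Mitochondrial transcripts, which come from the organelle's own genome, took 3.14% of the UMIs of the median CM in the control and 2.82% in the mutant at E10.5, 7.64 and 6.45% at E11.5, and 8.67 and 10.3% at E14.5. The difference was -0.31 and -1.19 points in the early litters and 1.67 points at E14.5, so the litters did not share a direction (mean 0.06 ± 1.47, SD, n = 3, exact permutation p = 1). At E14.5 the clusters moved with it: without cluster 10 the medians were 9.399 and 10.7%, and without clusters 10 and 13 they were 9.38 and 10.16%. The difference was then smaller and still higher in the mutant. Cluster 13 itself had a median of 13.2% in the control and 13.3% in the mutant.

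Fibroblast-like cells had 12228 median UMIs in the control and 13986 in the mutant at E10.5, 27724.5 and 33909 at E11.5, and 18020 and 16797.5 at E14.5. The early medians rested on few cells, and their 95% intervals overlapped. At E10.5 these were 9181 to 14684 in the control (19 cells) and 11435 to 18461 in the mutant (14 cells). At E11.5 they were 23103 to 32367 (34 cells) and 5254 to 42841 (19 cells). The mutant was 1.14 and 1.22 times the control in the early litters and 0.932 times at E14.5 (exact permutation p = 0.5). Their mitochondrial percent was lower in the mutant in 3 of 3 litters, by a mean of 0.44 ± 0.51 points (SD, n = 3, exact permutation p = 0.25, adjusted p = 0.75), and with the mean over cells in place of the median the difference was 0.380 points higher in the mutant. ECs had 14719 median UMIs in the control and 14294 in the mutant at E10.5, 31446 and 33330 at E11.5, and 17031 and 16094 at E14.5, all within 1.06-fold of each other.

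Epicardial cells could be compared in depth at E14.5 alone, where both hearts had 10 or more. Their median was 19001 UMIs in the control and 26086.5 in the mutant, 1.37-fold higher, and 4807.5 and 5381 genes, 1.12-fold higher. The 95% intervals of the UMI medians overlapped, with 17775 to 21401 in the control and 20078 to 31516 in the mutant. The immune cells of the same hearts went from 13439 to 18404.5 UMIs, also 1.37-fold and with intervals apart. CMs, ECs and fibroblast-like cells of that litter were at 0.895 to 0.945 times the control. Depth therefore did not move in the same direction across the cell types of this pair. Mitochondrial UMIs of the median epicardial cell were 3.93% in the control and 4.72% in the mutant, ribosomal protein UMIs 17.2 and 14.45%, and the doublet score, a computed likeness to a mix of cells, 0.251 and 0.341. Without the highest doublet scores the epicardial difference was smaller, 0.26 in place of 0.46 on the log2 scale for UMIs and 0.07 in place of 0.16 for genes. Blood cells at E11.5 had 34995 and 44670 median UMIs, 1.28-fold higher in the mutant and with intervals that overlapped.

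Over the 12 differences of a type within a litter, median UMIs were higher in the mutant in 6, genes in 6 and mitochondrial percent in 4. Averaged over the types of a litter, the mutant was 1.02, 1.11 and 1.08 times the control in UMIs (mean log2 0.10 ± 0.06, SD, n = 3, exact permutation p = 0.25), a direction opposite to that of CMs. The types averaged differed between litters, as blood entered at E11.5 alone and epicardial and immune cells at E14.5 alone. At E14.5 CMs, ECs and fibroblast-like cells were each below the control (0.895, 0.945 and 0.932 times). Only the epicardial and immune cells, both 1.37-fold, were above it there. None of the 29 results with an exact test over 3 litters was at or under 0.05, which the design did not allow. Genes detected at equal UMIs, read as the distance from a straight line fitted per type, differed by -0.06 to 0.05 on the log2 scale in CMs, ECs and fibroblast-like cells.

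**Figure D5:**
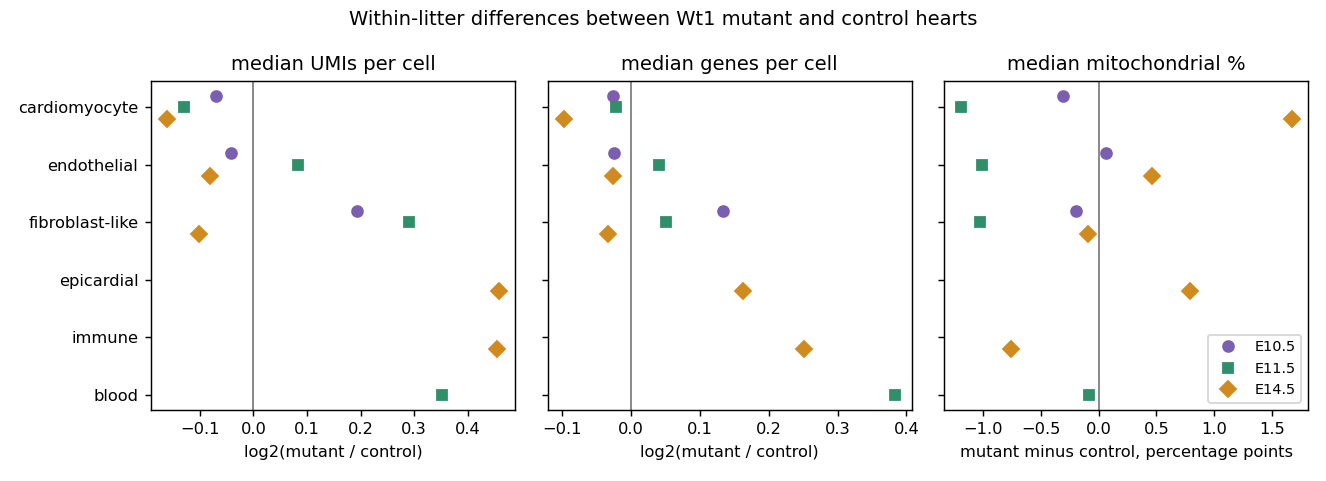
Mutant minus control within each litter (colors and shapes, E10.5, E11.5 and E14.5) for the median UMIs and genes per cell (x axes, log2 ratio) and the median mitochondrial percent (x axis, percentage points), by cell type (y axis). CMs lie left of 0 in UMIs and genes in all 3 litters, and epicardial and immune cells, compared at E14.5 alone, lie near 0.46 in UMIs.

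Hearts of the *Tbx18* line, mutant for another transcription factor of epicardial cells, were run in the same pools and give a second line for the epicardial share. In that line the share was 4.58% in the control and 0.513% in the mutant at E15.5, and 1.17 and 3.48% at E17.5, which are differences of -4.06 and 2.31 points. At E14.5, the stage the lines share, the 4 *Tbx18* hearts came from 4 litters, and the share was 4.44% in the control and 8.80, 7.05 and 7.71% in the 3 mutants. Each of these mutants was above its line's control, while the *Wt1* mutant of that stage was below its littermate. The mean was -7.71 points in 3 *Wt1* litters and -0.875 points in 2 *Tbx18* litters, and the difference of -6.83 points had an exact permutation p of 0.4, with 0.1 the smallest of 10 arrangements. A share can fall by no more points than its control has, and the early *Wt1* controls, at 14.49 and 15.6%, were above these *Tbx18* controls. With shares set as log2 odds, the share over the rest, the difference between lines was -1.54 (exact permutation p = 0.7). With the E14.5 hearts added across litters, an alternative chosen after seeing the data, the *Tbx18* mean was 0.555 points and the difference -8.26 points (exact permutation p = 0.2). For the fibroblast-like share the lines differed by -5.40 points (exact permutation p = 0.8) and for the log2 ratio of endocardial to vascular ECs by 0.13 (exact permutation p = 1). The litters tested were of different stages in the lines, and a difference particular to *Wt1* mutants was not shown.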

How the data were processed

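The authors deposited 1 line per cell after alignment to GRCm38.p4 with Cell Ranger 3.1.0, assignment to hearts with deMULTIplex, doublet removal with scds, integration with Harmony and clustering and annotation with Seurat. The 6621 *Wt1* cells met their limits of at least 2000 UMIs, 1000 to 8000 genes and at most 30% mitochondrial. Total UMI counts per cell were deposited without normalization. Detected genes, the percent of UMIs on mitochondrial and ribosomal genes and the doublet score are values deposited by the authors. Of the deposited columns 220 stayed unused. The depth per heart was 8825 to 41620 median UMIs among the hearts labelled *Wt1*.

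Shares, medians of hearts with at least 10 cells of a type, and ratios with 0.5 added to each count were computed per heart and compared by two-sided exact permutation within litters, which are the pairing in the labels (same-numbered hearts in different litters are not paired). P-values were adjusted by Benjamini-Hochberg within each family. Limits for a count of 0 stand at 3 counts. The litters are those of the labels, and with 1 heart per genotype and litter the spread between littermates is not known. The cell groups, lists and tests were chosen with earlier results of these data known. No gene was named for its values, since none were used. Other filters, denominators and litters left out were tried as alternatives. The permutation was tested on simulated data. Python 3.11.15 was used with numpy 2.4.6, pandas 2.3.3, scipy 1.17.1 and matplotlib 3.10.9.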

Additional observations from a re-analysis of the deposited data

Results flagged for a closer look

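Of 29 measures with a value in all 3 litters, 5 moved 1 way in both early litters (E10.5 and E11.5) and the opposite way at E14.5, and the difference between stages was not tested. With 3 litters such a split is common where directions fall at random. The measures are also not independent, since CMs enter the mean over types and genes rise with UMIs. The mitochondrial percent of CMs was 1.67 points higher in the mutant at E14.5 and lower in the early litters. The mitochondrial percent averaged over types, a set that differed between litters, was 0.416 points higher at E14.5, after -0.146 and -0.827 points in the early litters. In fibroblast-like cells the median UMIs (log2 -0.10) and genes (log2 -0.033) were lower in the mutant at E14.5 and higher before, and genes at equal UMIs were 0.0090 higher on the log2 scale at E14.5 and lower before. The early litters came from different experiments. A check of 32 measures for an outlying heart among the control hearts, 5 at most and of different stages, flagged none. With so few hearts it could not show that the controls were alike. It did not compare hearts of 1 stage, where the E10.5 control of experiment 1 stood apart in its atrial and fibroblast-like shares.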

How the results depend on the processing

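Over 39 results and 482 alternatives none crossed 0.05, but exact tests within 3 or fewer litters could not reach it, so this is no sign of stability. Of the alternatives 62 turned the direction and the others kept it. Of 408 that could be set against the reported value on its own scale, 117 were over 1.5 times larger or smaller. The direction never turned for 13 results, among them the lower epicardial share. With a litter left out its difference was -10.8 to -4.32 points, but as all 3 litters were lower, leaving 1 out could not turn it. Several of the 13 results rested on 1 litter, where leaving out another litter changed nothing. Over 8 hearts with no litter block the epicardial difference was -7.19 points (exact permutation p = 0.0893). That setting ignores the pairing and adds controls that had no mutant to compare. It exchanges hearts across stages that differ in epicardial share, so its p is not a test of genotype alone. Differences below are mutant minus control, in points or log2 as in the report, and the cause of a turn was not tested. With a litter left out, the fibroblast-like share ranged from -12.8 to 4.87, the CM share from -12.7 to 2.22, the endocardial to vascular ratio from -1.27 to 1.50, the mitochondrial percent over types from -0.486 to 0.135, the atrial share from -4.64 to 12.2, the blood share from -3.75 to 7.56, the immune share from -0.599 to 1.54, CM mitochondrial percent from -0.752 to 0.680, EC mitochondrial percent from -0.472 to 0.264, EC UMIs from -0.062 to 0.021, EC genes from -0.025 to 0.0083 and EC genes at equal UMIs from -0.022 to 0.011. The line comparison ranged from -15.8 to 1.85 for the fibroblast-like share and from -0.97 to 1.80 for the ratio, which was -0.75 without the later *Tbx18* litter.

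In experiment 1 alone (1 litter, no test) the fibroblast-like share was 18.4, the CM share 13.4, the blood share -7.86, the EC share -2.29, the immune share -1.20, CM mitochondrial percent -0.312, EC mitochondrial percent 0.0676 and EC genes at equal UMIs 0.030. In experiment 2 alone the ratio was 1.50, the atrial share -4.64, EC UMIs 0.0012 and EC genes 0.0074. The ratio was 0.475 with the first well of experiment 1 and 0.988 at E14.5 alone. With no litter block the ratio was 0.255, the mitochondrial percent over types 0.259, the immune share -0.0213, CM UMIs 0.043, CM genes 0.028, CM genes at equal UMIs -0.0061, EC UMIs 0.096, EC genes 0.071, EC genes at equal UMIs 0.015, blood UMIs -0.43, blood mitochondrial percent 0.511 and immune mitochondrial percent 0.0250. With at least 4000 UMIs and at most 20% mitochondrial, CM mitochondrial percent was -0.0153, EC UMIs 0.00099, EC genes 9.7e-05 and immune genes at equal UMIs 0.00078. Without the highest doublet scores CM genes were 0.0024, CM mitochondrial percent -0.0305, EC UMIs 0.032 and EC genes 0.0010, while CM UMIs (-0.067), fibroblast-like UMIs (0.020) and epicardial UMIs (0.26) and genes (0.07) kept the direction at a smaller size. With means over cells CM UMIs were -0.0074, CM genes 0.035, CM mitochondrial percent -0.0672, EC genes at equal UMIs 0.0029 and fibroblast-like mitochondrial percent 0.380. With 20 cells per type (E14.5 alone) fibroblast-like UMIs were -0.10, genes -0.033 and genes at equal UMIs 0.0090. Without cluster 10, chosen after seeing the data, CM mitochondrial percent was -0.0044, and -0.0115 without clusters 10 and 13.

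With blood left out the EC share was 12.2, the epicardial share -11.9 and the fibroblast-like share -0.795. Minimums of 20 and of 100 cells per heart chose the same hearts. Depth is limited by 47 non-myocytes in the smallest heart.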
